A study of Astyanax mexicanus with 6 samples.

Results

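Among the abundant transcripts of Mexican tetra liver, a small group stayed within 1.5-fold over all libraries of river and cave fish under the scaling used here. These steady abundant genes were selected on the measured values themselves. CPM are reads scaled to a common library size, here adjusted by the TMM factors explained below. The rule asked for a mean of at least 200 CPM over all 6 libraries and a highest CPM at most 1.5 times the lowest. The rule took 23 of the 27420 genes in the table, or 4.2% of the 548 genes that reach that mean. The small spread of these genes is therefore not a finding, and their values are given as a description.

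The samples were livers of Astyanax mexicanus from 3 populations with 2 libraries each: Surface, the sighted river form, and Pachon and Tinaja, cave forms without eyes, each named after its cave. PolyA RNA came from bulk liver tissue. The labels name no treatment, sex, age, feeding state or time of sampling, and leave unsaid whether replicates are separate fish. All SDs and p-values here thus reflect variation between these libraries alone, and that variation may be technical. Where a pair of values is given for a population or its livers, it is for the 2 libraries, replicate 1 first. Total counts ran from 22168622 to 29521610 per library, so that the 23 genes had 3623 to 88585 counts each in every library, and counting error was at most 1.7% of a value.

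Transcripts that hold a constant level across tissues or conditions usually come from housekeeping genes, which serve tasks that every cell has, such as protein synthesis, protein turnover and respiration. They are used as internal standards in quantitative PCR, and the scaling of RNA-seq libraries rests on the related assumption that most genes do not change. In liver, by contrast, much of the messenger RNA codes for secreted plasma proteins and for metabolic enzymes whose levels follow diet and physiology. The deposited table gives Ensembl identifiers without names, and 0 of them could be paired with a symbol here. It was therefore not read which of these tasks the 23 genes serve, and the labelled tissue was not checked against liver markers.

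Steadiness here means steadiness after TMM, a scaling that takes the typical gene as constant, and it did not carry over to plain total counts. Under total-count scaling 60 abundant genes met the same rule, and a single gene, ENSAMXG00000042510, belonged to both groups. That overlap was 4.35% of the 23 genes and 1.67% of the 60. The TMM factors were 0.822 and 0.905 in the Surface livers, 1.21 and 1.33 in the Pachon livers and 1.01 and 0.825 in the Tinaja livers. Both Pachon factors lay above the other 4, so that the Pachon libraries were scaled down most. The lowest and highest factors, 0.822 and 1.33, lay more than 1.5-fold apart. A gene flat under TMM thus exceeds the limit under total counts by construction, and nothing is read from the small overlap. Without the TMM factors the median log2 difference of all tested genes was 0.55 for Pachon against Surface, 0.08 for Tinaja against Surface and 0.48 for Pachon against Tinaja. The 23 genes moved with that general shift by construction, since a change of factors moves all genes by nearly the same amount. The median log2 difference of the 23 genes in mean CPM between Pachon and Surface was -0.08 under TMM and 0.48 under total counts. Which of the scalings matches the amount of RNA per cell was not tested. In bulk liver, fewer cells of a type and less RNA per cell cannot be told apart.

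**Figure D1:**
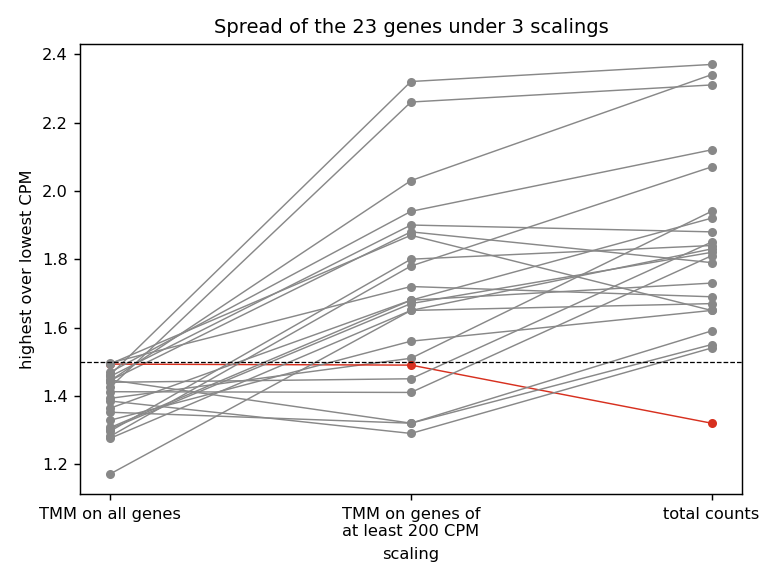
Highest over lowest CPM of each of the 23 genes (1 line per gene) under TMM on all genes, TMM on the genes of at least 200 CPM alone, and total counts; the dashed line marks 1.5. All lines start at or below 1.5 and all but that of ENSAMXG00000042510 (red) end above it, with a median of 1.41 on the left and 1.82 on the right.

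The most abundant of the steady genes was ENSAMXG00000031094, which was also the 42nd most abundant gene of the whole table. It had 2423.7 and 3351.8 CPM in the Surface livers, 2960.4 and 2319.2 in the Pachon livers and 2455.9 and 2995.2 in the Tinaja livers. All populations overlapped, and the gap between the Surface libraries, 1.38-fold, was larger than that between the population means, 1.09-fold. Its spread over the 6 libraries, 1.45-fold, was reached between Surface 2 and Pachon 2.

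ENSAMXG00000035037 followed with a mean of 1689.7 CPM. Its values were 1897.1 and 1956.1 CPM in the Surface livers, 1527.4 and 1684.2 in the Pachon livers and 1668.9 and 1404.4 in the Tinaja livers. Both Surface libraries lay above all 4 cave libraries under TMM, while the caves overlapped. Under total counts Pachon turned to the other side, with 1842.2 and 2246.7 against 1558.9 and 1770.2 CPM for Surface. Tinaja then overlapped Surface, with 1691.5 and 1158.1 CPM.

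ENSAMXG00000042510 had the third highest mean and a different shape. It had 1615.3 and 1632.0 CPM in the Surface livers, 1261.6 and 1158.1 in the Pachon livers and 1728.8 and 1714.8 in the Tinaja livers. Under TMM the libraries of each population lay close together and no populations overlapped, with Pachon lowest and Tinaja highest. Its population means spanned 1.42-fold, the widest such span among the 23 genes, against 1.09-fold at most between replicates. Under total counts it had 1327.4 and 1476.9 CPM for Surface, 1521.7 and 1544.9 for Pachon and 1752.2 and 1414.0 for Tinaja, so that Pachon lay above Surface and Tinaja overlapped both. Its 6-library spread then shrank from 1.49-fold to 1.32-fold, whereas that of the other 22 genes grew.

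The smallest spread of all belonged to ENSAMXG00000034674, with 221.9 and 203.2 CPM in the Surface livers, 229.8 and 230.8 in the Pachon livers and 196.9 and 204.2 in the Tinaja livers. Its highest value was 1.17 times its lowest, a coefficient of variation of 6.9%. It was also the member with the lowest mean, 214.4 CPM. Under total counts the same gene spread 1.83-fold.

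ENSAMXG00000012674 came next, with 248.1 and 194.4 CPM in the Surface livers, 243.9 and 205.7 in the Pachon livers and 208.0 and 240.7 in the Tinaja livers. Its population means lay within 1.02-fold of each other, the closest among the 23 genes, although the Surface libraries differed by 1.28-fold. The third steadiest, ENSAMXG00000019601, was among the most abundant as well, with a mean of 1332.0 CPM. It had 1373.7 and 1313.0 CPM in the Surface livers, 1254.7 and 1543.7 in the Pachon livers and 1302.8 and 1204.2 in the Tinaja livers. Pachon 1 and 2 lay on either side of Surface, and both Tinaja libraries lay just below it.

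The other members were less abundant. Of the 23 genes, 4 averaged at least 1000 CPM, 2 lay from 500 to 1000, 7 from 300 to 500, and 10 from 200 to 300, with a median of 323.2 CPM. The 548 abundant genes were spread differently over these ranges, with 172, 122, 133 and 121 genes. The 6-library spread was at most 1.2-fold in 1 gene, from 1.2 to 1.3-fold in 3, from 1.3 to 1.4-fold in 7 and from 1.4 to 1.5-fold in 12. More than every second member thus lay in the outermost step that the rule allows.

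No gap in the data marks the limit of 1.5. Just inside it were ENSAMXG00000035024 at 1.4965, with 219.3 CPM in Tinaja 2 and 328.2 in Surface 2 as its extremes, and ENSAMXG00000040503 at 1.4938, with 285.1 in Pachon 1 and 425.8 in Tinaja 2. Just outside were ENSAMXG00000014365 at 1.5152, from 291.8 CPM in Surface 2 to 442.1 in Pachon 2, and ENSAMXG00000007436 at 1.52, from 232.9 in Surface 2 to 354.0 in Tinaja 2. On the other limit, ENSAMXG00000035464 had a 1.35-fold spread but missed the group with a mean of 198.0 CPM.

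**Figure D2:**
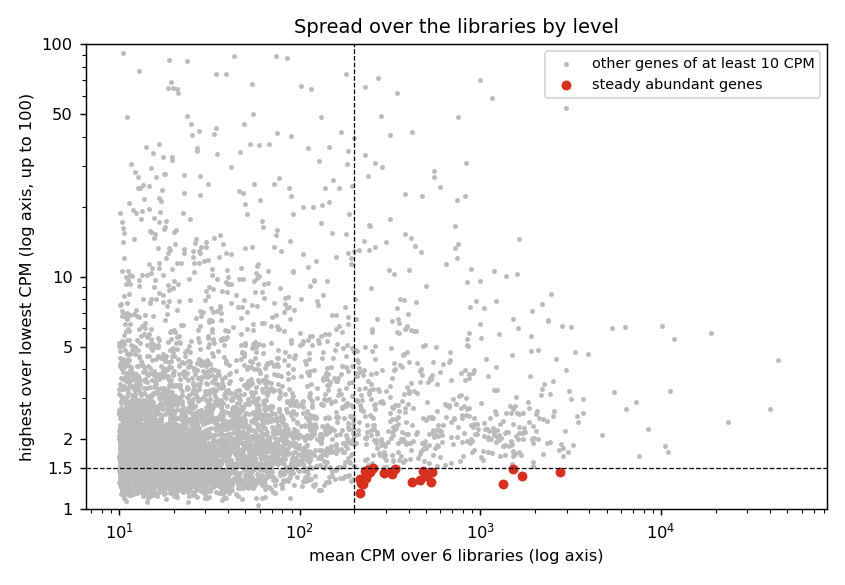
Highest over lowest CPM against mean CPM, both on log axes, for the 5334 genes of at least 10 CPM; 68 of them with a ratio above 100 or a library at 0 are not drawn, and dashed lines mark 1.5 and 200 CPM. The 23 steady abundant genes (red) fill the lower right corner, where few points lie, with means from 214.4 to 2751.0 CPM.

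Steadiness became rarer with abundance above 50 CPM. At 1 to 10 CPM 12.9% of 7254 genes and at 10 to 20 CPM 25% of 2115 were steady, and at 20 to 50 CPM 26.4% of 1666 genes stayed within 1.5-fold over the 6 libraries. The share was 16% of 651 genes at 50 to 100 CPM, 10.2% of 354 at 100 to 200, 6.69% of 254 at 200 to 500, 1.64% of 122 at 500 to 1000 and 2.33% of 172 above that. Replicates were also further apart at high levels: 70.5% of genes at 20 to 50 CPM had replicates within 1.5-fold in all 3 populations, against 42.5% at 200 to 500 CPM and 40.1% at 1000 CPM or more. The trend in the share of steady genes depended on the scaling, and the replicate shares were read under TMM alone. Under total counts 7.26% of the genes at 20 to 50 CPM and 20.3% of those at 1000 CPM or more were steady, and with TMM factors from the abundant genes alone the shares were 9.54% and 13.4%.

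**Figure D3:**
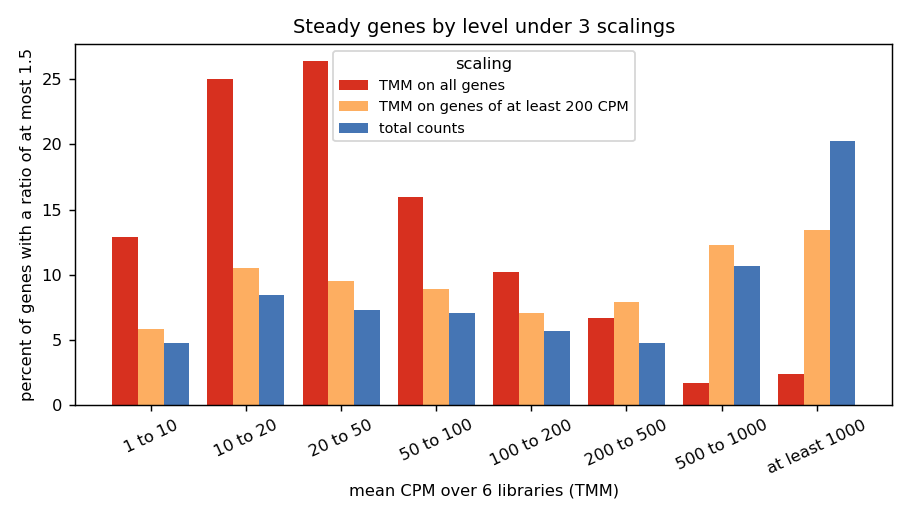
Percent of genes whose highest CPM was at most 1.5 times the lowest, by mean CPM, under 3 scalings (bar colours). With TMM on all genes the bars fall from 26.4% at 20 to 50 CPM to 2.33% at 1000 CPM or more, whereas with total counts the highest bar, 20.3%, is that of the most abundant genes.

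The steady genes held a minor part of the RNA. They took 1.14% and 1.32% of all counts in the Surface livers, 1.56% and 1.75% in the Pachon livers and 1.38% and 1.1% in the Tinaja livers. As population means these were 1.23% ± 0.13 for Surface, 1.65% ± 0.13 for Pachon and 1.24% ± 0.20 for Tinaja (SD, n = 2). Both Pachon libraries lay above the other 4. A gene that is flat under TMM takes a larger share of the counts where the TMM factor is larger. The Pachon factors, 1.21 and 1.33, were the highest. This order was thus largely set by the rule and the scaling, and nothing is read from it. The other 525 abundant genes held between 71.1% (Pachon 2) and 82% (Tinaja 2) of the reads, and the Pachon libraries were the lowest there. On the CPM scale the 23 genes summed to 14238.1 ± 527.9 for Surface, 13015.2 ± 119.3 for Pachon and 13451.6 ± 206.3 for Tinaja (SD, n = 2). The most abundant gene of the table that was not steady, ENSAMXG00000038452, alone ran from 0.121% of the counts in Surface 2 to 15.8% in Tinaja 2. It took 1.11% in Surface 1, 4.1% in Pachon 1, 0.465% in Pachon 2 and 8.28% in Tinaja 1. Under TMM its replicates differed by 10.07-fold in Surface and 9.74-fold in Pachon.

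Under TMM, how the 23 genes varied among themselves differed from gene to gene. The highest value was in Surface 1 for 6 genes, in Tinaja 1 for 6, in Surface 2 for 4, in Pachon 2 for 4, in Tinaja 2 for 2 and in Pachon 1 for 1. The lowest value was in Tinaja 2 for 6 genes, in Pachon 2 for 5, in Pachon 1 for 4, in Surface 2 for 4, in Surface 1 for 2 and in Tinaja 1 for 2. With TMM every library was thus the top for some member and the bottom for another. This mix depended on the scaling, since under total counts both Pachon libraries lay above both Surface libraries in 22 of the 23 genes. The change of factors moves all genes by nearly the same amount, so nothing is read from the 22. The share over all genes tested was not counted under total counts. All 6 possible orders of the population means occurred under TMM: Pachon above Surface above Tinaja in 5 genes, Pachon above Tinaja above Surface in 2, and each of the other orders in 4. Among the 548 abundant genes the most frequent order was Surface above Tinaja above Pachon, with 205 genes or 37.4%, and 4 of the 23 genes had it.

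**Figure D4:**
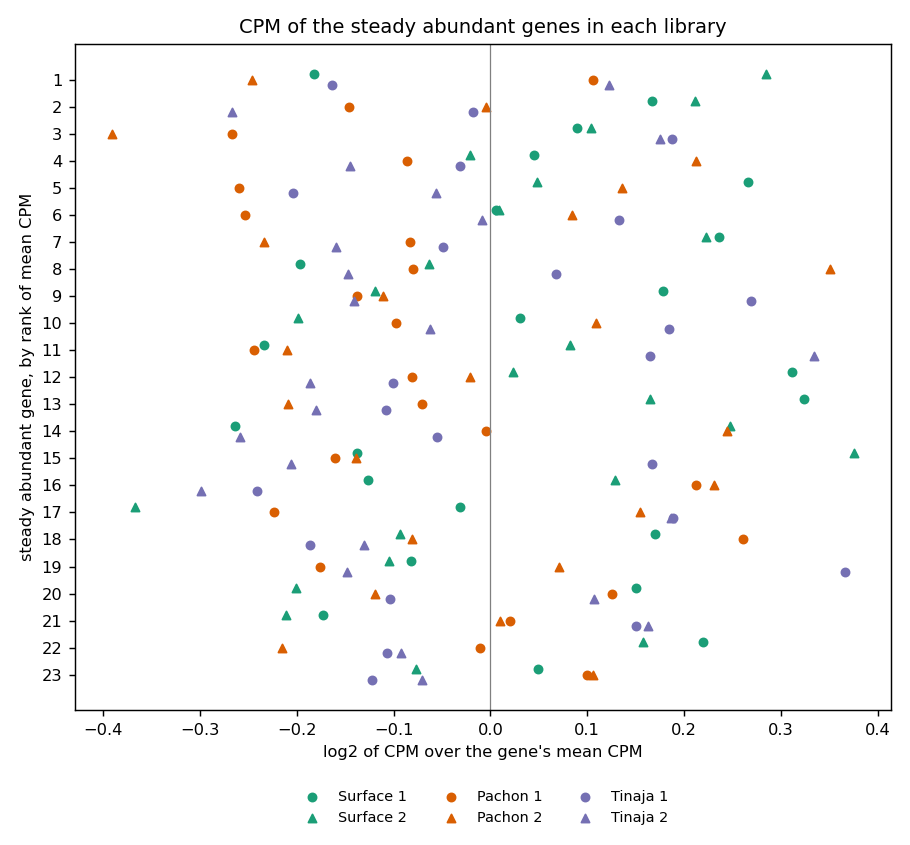
Log2 of each library's CPM over the gene's mean CPM for the 23 steady abundant genes, ordered by mean CPM from the top; colours mark populations and symbols replicates. With TMM, as drawn here, in ranks 2, 7, 12, 13 and 22 both Surface libraries lie right of all cave libraries. In rank 21 they lie left of them. In ranks 3 and 16 Surface lies between the caves with all populations apart. In the remaining ranks some or all of the populations overlap.

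In the 23 genes the rule bounds both the gaps between replicates and those between populations. The largest gap between replicates, over the 3 populations, had a median of 1.25-fold and reached 1.43-fold, and the gap between the highest and lowest population mean had a median of 1.22-fold and reached 1.42-fold. The replicate gap was the larger in 13 of the 23 genes. It is the largest of 3 gaps between single libraries and is set against means of 2 libraries, so nothing is read from that count. The median gap between replicates was 1.16-fold in Surface, 1.15-fold in Pachon and 1.1-fold in Tinaja for the 23 genes. A principal component analysis of the 23 genes was made on log2 CPM under TMM, the scaling used in the choice. The first component, with 30.9% of the variance, placed Surface 1 and 2 at 0.52 and 0.62. It placed Pachon 1 and 2 at 0.20 and -0.28, and Tinaja 1 and 2 at -0.55 and -0.51. The second, with 26.4%, placed the Pachon libraries at -0.40 and -0.77 and the other 4 between 0.17 and 0.39.

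Each pair of populations was compared, the pair of caves included, to see which members lay apart. None of the 23 genes was called by edgeR's quasi-likelihood test at an adjusted p below 0.05 in any comparison, and 0 had an unadjusted p below 0.05. Over all 15282 genes tested, 16.9% were called for Pachon against Surface, 15.8% for Tinaja against Surface and 9.22% for Pachon against Tinaja. Among the 548 abundant genes the calls numbered 148, 121 and 33. The rule used the same libraries, so the count of 0 was nearly fixed by the choice, and nothing is read from it. DESeq2's Wald test called 3061, 2935 and 2064 genes in the same order of comparisons, and 0, 0 and 1 of the 23. The 1 gene was ENSAMXG00000042510, lower in Pachon than in Tinaja by -0.53 ± 0.18 on the log2 scale (SE, DESeq2 adjusted p = 0.0357). EdgeR gave -0.53 ± 0.29 (SE, edgeR adjusted p = 0.271). Over 13 alternatives, the DESeq2 test included, the adjusted p ran from 0.0357 to 0.931.

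The intervals show what size of difference these libraries leave room for under TMM. They leave out the choice of scaling. For Pachon against Surface, the median log2 difference of the 23 genes in mean CPM was -0.08 under TMM and 0.48 under total counts. The median half-width of the approximate 95% interval was 0.63 on the log2 scale in each comparison, a factor of 1.55. Since the members were chosen for their small spread, these intervals are a description. The interval lay within 2-fold in either direction for 21 of the 23 genes in Pachon against Surface, 21 in Tinaja against Surface and 20 in Pachon against Tinaja, against 69, 114 and 120 of the 548 abundant genes. For the members left over, a 2-fold difference lay inside the interval, although their measured values differed by less. Fitted log2 differences ran from -0.43 to 0.27 for Pachon against Surface, from -0.38 to 0.39 for Tinaja against Surface and from -0.53 to 0.47 for Pachon against Tinaja. Their medians were -0.09, -0.08 and -0.03, against -0.60, -0.27 and -0.24 for the 548 abundant genes and -0.01, 0 and 0 for all genes tested.

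Small but complete separations were present under TMM. Both Pachon libraries lay below both Surface libraries in 7 of the 23 genes (31.4% of all genes tested) and above them in 3 (32.3% of all). Both Tinaja libraries lay below both Surface libraries in 9 genes (30.1% of all) and above them in 4 (30.2% of all). Pachon lay below Tinaja in 4 genes (29.4% of all) and above it in 5 (31.5% of all). The rule limits how far apart these values can lie, so nothing is read from the counts, and the comparisons against Surface share the Surface libraries. Under total counts Pachon lay below Surface in 0 of the 23 genes and above it in 22, Tinaja lay below Surface in 3 and above it in 3, and Pachon lay below Tinaja in 0 and above it in 15. The genes in which Pachon lay below another population thus depended on the scaling. Under both scalings Tinaja lay below Surface in 3 genes and above it in 3. Likewise Pachon lay above Surface in 3 and above Tinaja in 5. Over all genes tested, the median log2 difference under total counts was 0.55 for Pachon against Surface and 0.48 for Pachon against Tinaja. The change of factors moves all genes, so nothing is read from the 22 or the 15. Shares over all genes were not counted under total counts, here or below.

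All 4 cave libraries lay below both Surface libraries in 5 of the 23 genes under TMM (18% of all genes tested), and in 0 under total counts. The 5 were those ranked 2, 7, 12, 13 and 22 by mean CPM, of which ranks 7 and 13 were picked for display after their values were seen. The gene ranked 7 had 587.4 and 582.1 CPM in the Surface livers, 470.7 and 424.2 in the Pachon livers and 482.1 and 446.4 in the Tinaja livers. Surface lay above both caves under TMM. Under total counts it had 482.7 and 526.7 CPM for Surface, 567.7 and 565.9 for Pachon and 488.7 and 368.1 for Tinaja, so that Pachon lay above Surface and Tinaja overlapped it. The gene ranked 13 had 402.0 and 360.0 CPM in the Surface livers, 305.8 and 277.9 in the Pachon livers and 298.1 and 283.5 in the Tinaja livers. Its log2 difference was -0.39 ± 0.25 in Pachon (SE, edgeR adjusted p = 0.321) and -0.38 ± 0.25 in Tinaja (SE, edgeR adjusted p = 0.348). Neither passed the test. Under total counts Pachon lay above Surface in this gene, with 368.8 and 370.8 against 330.4 and 325.8 CPM. Tinaja, with 302.1 and 233.8 CPM, stayed below Surface.

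The reverse, all cave libraries above Surface, occurred in 1 gene (17.9% of all), ENSAMXG00000029023, which was named after its values were seen. It had 193.2 and 188.1 CPM in the Surface livers, 220.9 and 219.3 in the Pachon livers and 241.7 and 243.9 in the Tinaja livers. The replicates differed by at most 1.03-fold while the population means spanned 1.27-fold. Under TMM the populations did not overlap, with Surface lowest and Tinaja highest, but no comparison was called (edgeR adjusted p = 0.603 for Pachon against Surface, 0.346 for Tinaja against Surface and 0.702 for Pachon against Tinaja). Under total counts both caves again lay above Surface, at 158.8 and 170.2 CPM, but Pachon was then highest, with 266.4 and 292.5 against 245.0 and 201.1 for Tinaja.

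Under TMM the caves lay on opposite sides of Surface in 2 genes (6.62% of all), ENSAMXG00000042510 with Pachon below and ENSAMXG00000033239 with Pachon above. The latter, also named after its values were seen, had 223.4 and 266.6 CPM in the Surface livers, 282.6 and 286.3 in the Pachon livers and 206.3 and 198.2 in the Tinaja livers. Under total counts Tinaja overlapped Surface in both genes, and neither kept the arrangement, which 3 other members then had. In 7 genes (13% of all) no pair of populations lay apart under TMM, and ENSAMXG00000031094 and ENSAMXG00000012674 were among them. Under total counts this was so in 1 other member and in 0 of these 7.

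Because the rule used every library, the same rule was also applied to fewer libraries and the chosen genes were read in the libraries it had not used. When the choice was made on the 3 replicate 1 libraries, 90 of 568 abundant genes (15.8%) met it. Of these 90, 34 (37.8%) were also within 1.5-fold over the replicate 2 libraries, against 16% of all 568. In the reverse direction 90 of 550 genes met the rule on replicate 2, and 32 of them (35.6%) did so on replicate 1, against 16.7% of all 550. Both the 34 and the 32 genes include the 23 members, which meet both limits by definition. The genes chosen on replicate 1 spread over the replicate 2 libraries by a median of 1.63-fold and by up to 7.31-fold. Most of the genes chosen on the libraries of a single replicate number thus did not meet the limit in the others. The TMM factors came from all 6 libraries, and no test was made of these shares.

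Single libraries limited the group unequally. Leaving Surface 1 out of the choice gave 55 genes and leaving Tinaja 2 out gave 49, against 35 without Surface 2, 33 without Pachon 1, 31 without Pachon 2 and 27 without Tinaja 1. All 23 genes were in each of these groups, which the rule nearly fixed, since a spread limit met over 6 libraries also holds over fewer. The 55 genes had a median of 1.22 times the mean of the other libraries when read in Surface 1, and 74.5% of them lay within 1.5-fold of it. The 49 genes had a median of 0.858 times the mean in Tinaja 2, with 71.4% within 1.5-fold. In the remaining libraries the medians ran from 0.931 to 1.06 and the shares from 88.6% to 100%. Over all abundant genes, the chosen ones included, the shares ran from 43.4% in Surface 1 to 70.6% in Tinaja 1, and no test of the difference was made. The 23 members lie within 1.5-fold of that mean by definition and count in every share of chosen genes. Those shares are therefore partly fixed by the rule.

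**Figure D5:**
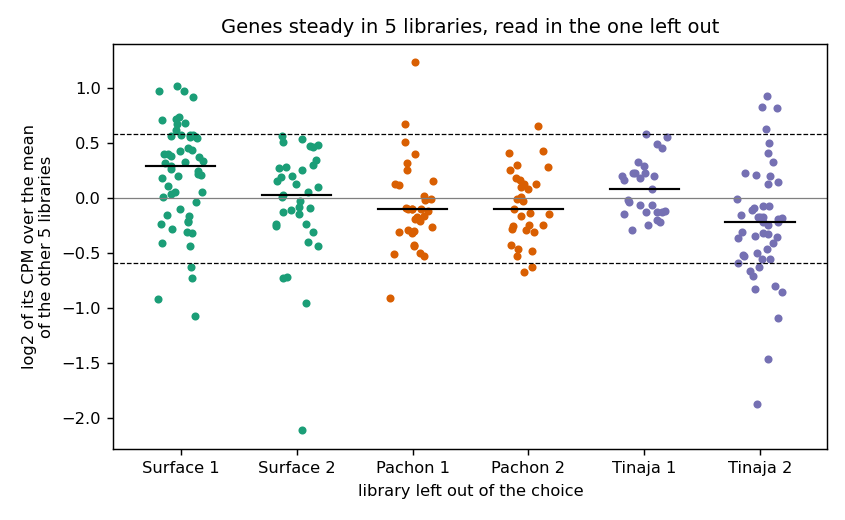
Log2 of the CPM in a left-out library over the mean of the other 5, for the genes that met the rule in those 5 libraries (1 point per gene, jittered sideways); black bars are medians and dashed lines mark 1.5-fold in either direction. Surface 1 sits above the others with a median ratio of 1.22 and Tinaja 2 below them with 0.858, and both hold more points beyond the dashed lines than the remaining libraries.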

How the data were processed

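The authors deposited whole-number read counts per gene for 6 liver libraries, without normalization. The submitters' processing notes name bcl2fastq 2.20 and STAR without a version. The table's name points to assembly build 2 and Ensembl release 96. The counter and strand setting are not named by labels or headers, so counts of overlapping genes and near-identical copies are uncertain.

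CPM were computed with R 4.3.3 and edgeR 4.0.16 after TMM on all genes. The test was a two-sided quasi-likelihood test in edgeR with robust estimation on 15282 genes kept at a count minimum of 10, with TMM on those genes, all 6 libraries in 1 fit (3 residual degrees of freedom) and Benjamini-Hochberg adjustment across all genes tested; a gene is called at an adjusted p below 0.05. SEs and intervals are approximate and derive from the F statistic. They lean on a spread shared across genes. Alternatives were DESeq2 1.42.0, other scalings, filters, limits, a replicate block and leaving out libraries. The edgeR test was tried on simulated counts with few changed genes, in Pachon alone and evenly up and down. The rule was tried on a flat and a stepped made-up gene. Neither trial tests the scaling or the choice of genes in these livers.

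The members and lists were chosen with earlier results of these data known. Named genes, by identifier, were the 3 most abundant and 3 steadiest members, those nearest each limit, and the most abundant gene outside. Because 0 identifiers matched a symbol, the 6 gene lists were not tested and no sequence is printed.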

Additional observations from a re-analysis of the deposited data

Results flagged for a closer look

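ENSAMXG00000042510 drew attention because, under TMM, both Pachon libraries lay below both Surface libraries and both Tinaja libraries lay above them. Its log2 difference of Pachon against Tinaja was -0.53 ± 0.29 (SE, edgeR adjusted p = 0.271) and ranged from -0.60 to -0.05 over 13 alternatives, with adjusted p from 0.0357 by DESeq2 to 0.931 with total-count scaling. ENSAMXG00000033239 had the opposite arrangement under TMM, with Pachon above Surface and Tinaja below it. Under total counts neither gene kept its arrangement. For ENSAMXG00000033239 the log2 difference of Pachon against Tinaja was 0.47 ± 0.25 (SE, edgeR adjusted p = 0.259) and ranged from 0.45 to 0.96, with adjusted p from 0.064 with total-count scaling to 0.53. The difference between the caves was thus not called by edgeR for either gene. The rule and the flagging used these same libraries, and the flagging favours genes with a wide gap between the caves. These p-values are therefore a description, and nothing is read from them.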

How the results depend on the processing

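The number of steady abundant genes, 23, was 21 with DESeq2 size factors, 22 with upper-quartile factors and 30 with TMM on these genes alone. It was 60 with total-count scaling and 58 with TMM on the genes of at least 200 CPM. The scalings on subsets of genes were added for this count after the data were seen. It was 59 with a mean of at least 100 CPM, 6 with at least 500 CPM, 4 with a ratio of at most 1.3 and 138 with at most 2. It was 90 on either replicate alone and 27 to 55 without 1 library. The cause of the change with scaling was not tested. Fewer libraries make the rule easier to meet by construction.

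Members chosen with total counts took 7.5% (Surface), 7.17% (Pachon) and 7.05% (Tinaja) of the counts. Those chosen with DESeq2 size factors took 1.06%, 1.46% and 1.04%. Choosing genes that are flat under a scaling largely fixes how these shares compare between populations, so nothing is read from that. Without 1 library the shares were 1.64% to 4.96% in Surface, 2.18% to 6.8% in Pachon and 1.64% to 5.22% in Tinaja.

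Total-count scaling gave 4599 called genes for Pachon against Surface and 2770 for Pachon against Tinaja. Without 1 library the calls numbered 937 to 2318 for Pachon against Surface, 878 to 1812 for Tinaja against Surface and 352 to 1360 for Pachon against Tinaja. With total-count scaling 0 of the 23 genes were called in any comparison. DESeq2's Wald test called 1 of them for Pachon against Tinaja, where it called 2064 genes in all.

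The labels do not say what a replicate number marks. Deviations of same-numbered libraries from their population means had a correlation of 0.06 for Pachon and Surface, 0.02 for Tinaja and Surface and -0.11 for Pachon and Tinaja, so not every library matched its own number best. With a replicate block 2136, 1956 and 1043 genes were called in the same order as above, and 0 of the 23. For the 23 genes counting error was at most 1.7% of a value. Whether depth or the number of libraries limited the calls was not tested.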

Other observations

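The 60 genes that met the rule under total-count scaling were more abundant, with a median of 1083.9 CPM against 323.2 for the 23 genes, and 35 of them had at least 1000 CPM. Under TMM these 60 genes spread over the 6 libraries by 1.49-fold to 2.32-fold, with a median of 1.88-fold. Of the 23 genes, 5 met the rule under 5 of 6 scalings run, 14 under 4, 3 under 3 and 1 under 2. None met it under all 6. The 6 include TMM, which all members pass by definition, and TMM on the 23 genes themselves. DESeq2 and upper-quartile factors lay close to those of TMM in every library. These counts were thus partly fixed in advance and are no measure of robustness.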
